A study of Mus musculus with 9 samples.

Results

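Luminal cells line the ducts and alveoli of the mammary gland, and their identity is held by transcription factors that bind enhancers and promoters of luminal genes. Gata3, a zinc-finger factor, and Foxa1, a forkhead factor that opens chromatin for the estrogen receptor, are known for the hormone-sensing lineage, whereas Elf5 drives the alveolar, milk-forming lineage. Elf3, Ehf and Spdef are further ETS factors of epithelial cells, Tfap2b and Tfap2c are AP-2 factors, Grhl2 is a grainyhead-like activator of cell junction genes, and Cebpb is a leucine zipper factor needed for ductal and alveolar growth.

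These 10 genes were chosen by name as transcription factors of luminal or epithelial identity, out of 55450 genes in the count table. The choice was made with earlier results of these data known. The shares of all genes printed beside counts of calls are therefore a description and not a test. All 10 passed the filter on low counts, as did 19357 genes in all, and each was compared over 3 genotypes. EYFP+ cells had been sorted from mammary glands of adult nulliparous mice, over 12 weeks old, that carried the lsl-EYFP reporter and K8CreERT2. The Krt8 promoter limits Cre, and so the EYFP label, to luminal cells and their descendants. Control mice carried no floxed gene, LATS1/2-KO mice had floxed Lats1 and Lats2, and LATS1/2-Sox9-KO mice had floxed Sox9 as well. Every mouse, controls included, received 2 mg of tamoxifen in corn oil on each of 5 days, and glands were taken 7 days after the last dose. The sort kept single, live, EYFP+ cells and had no step against blood or endothelial cells.

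Each genotype gave 3 libraries, 9 in all, with 44167762 to 61967651 counts per library. Nothing in the labels says that the libraries came from separate mice, so the p-values measure the spread between these libraries. Values are normalized counts, that is counts scaled to the mean library size after TMM normalization. A gene was called lower or higher at an absolute log2 fold change above 1 with an adjusted p of at most 0.05, with p-values from the quasi-likelihood test of edgeR, Benjamini-Hochberg adjusted over all genes tested. With 3 libraries a group, the smallest two-sided p of an exact permutation test is 0.1, and that test was not used. Because the cells were measured in bulk, fewer cells of a type and less RNA per cell cannot be told apart.

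Lats1, a targeted gene, had 5672, 5929 and 5940 normalized counts in control replicates 1 to 3, 2090, 1923 and 2336 in those labelled as LATS1/2-KO, and 2058, 1844 and 1709 in those labelled as LATS1/2-Sox9-KO. Lats2 had 1039, 865 and 1220 in the control replicates, 1256, 1434 and 1723 in those labelled as LATS1/2-KO, and 1957, 1580 and 1240 in those labelled as LATS1/2-Sox9-KO. Lats1 followed the labels and Lats2 did not, and the groups are therefore named as libraries labelled with a genotype. Sox9 had 23313, 19948 and 21534 in control, 7205, 9506 and 12433 in the libraries labelled as LATS1/2-KO, and 8812, 6756 and 6460 in those labelled as LATS1/2-Sox9-KO. The last 2 groups overlapped, and the log2 fold change of Sox9 between them was -0.40 (standard error, SE, 0.193, adjusted p = 0.250). Gene-level counts include transcripts that lost the floxed exons, and exons of Gm49361 on the same strand cover 42.4% of the Lats2 exon bases, which limits what the count of Lats2 can show.

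Some libraries stood apart from the others of their genotype. By a chi-square of their counts per gene, control replicate 3 differed from control replicates 1 and 2 by 131 and 116, while those differed from each other by 29.5. LATS1/2-Sox9-KO replicate 1 differed from replicates 2 and 3 by 87.5 and 123, against 17.9 between those. The largest distance within a genotype was 142, between LATS1/2-KO replicates 1 and 2, with 97.1 between 1 and 3 and 64.8 between 2 and 3. Without LATS1/2-KO replicate 1, 497 genes were called higher between the deletion groups, against 301 with it. Control replicate 3 also had the lowest sum of the progenitor and alveolar markers (summed normalized count 276023, against 486085 and 506122 in replicates 1 and 2) and the highest sum of the hormone-sensing markers (404863, against 313142 and 289755). The latter held without Prlr, the most abundant of them (203632, against 137905 and 137324). Single hormone-sensing markers differed in direction. Pgr was highest in control replicate 3 (30018, against 17143 and 20895). Calca (295, against 7428 and 5280) and Cited1 (11466, against 22589 and 17313) were lowest there. Control replicate 3 was the lowest control for 8 of the 10 factors, all but Gata3 and Spdef. Calls of the 10 factors that turn on control replicate 3 are given with and without it.

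The luminal label was checked with 10 markers of luminal identity, all of which had counts. Their summed normalized count was 896081 ± 75269 (SD, n = 3) in control, 1102134 ± 12828 (SD, n = 3) in the libraries labelled as LATS1/2-KO and 1744156 ± 132881 (SD, n = 3) in the ones labelled as LATS1/2-Sox9-KO. Krt18, a keratin of luminal cells, was the most abundant of them, and it had higher counts in every library of both deletion groups than in any control library. Without Krt18 the sums were 647705 ± 66806, 695524 ± 34771 and 1028512 ± 59808 (SD, n = 3 each) in the same order. Control and LATS1/2-KO libraries then overlapped, while those labelled as LATS1/2-Sox9-KO stayed above all others. The markers did not move one way. Between the libraries labelled as LATS1/2-KO and control, Krt7 was called higher (log2 fold change 2.35), Krt19 (-1.03) and Prom1 (-4.63) were called lower, Krt19 not without control replicate 3 (-0.92) or LATS1/2-KO replicate 2 (-0.82) or 3 (-0.95), and by adjusted p alone 3 of 10 were higher (28.7% of all genes) and 4 lower (27.1%), among the latter the adhesion gene Epcam (-0.74) and Cd24a (-0.59). Without control replicate 3, Muc1 was called lower as well (-1.32). The median log2 fold change of the 10 was -0.45. 

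Luminal factors were mainly lower in the libraries labelled with a deletion than in control, and they were so to very different degrees. Between the libraries labelled as LATS1/2-KO and control, 5 of the 10 factors were called lower (Gata3, Foxa1, Elf3, Cebpb and Spdef), against a background of 17.5% of all genes tested, and 0 were called higher, against 17.1%. With no demand on the fold change, 7 of 10 passed the adjusted p as lower, the further ones being Tfap2b and Grhl2 (27.1% of all genes), and 1 passed as higher, Ehf (28.7% of all genes). Elf5 and Tfap2c passed in neither direction. The median log2 fold change of the 10 factors was -1.28, beside 0.04 over all genes tested.

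Between the libraries labelled as LATS1/2-Sox9-KO and control, which use the same control libraries, 6 of 10 were called lower, the same 5 genes and Elf5 (19.6% of all genes tested), and 0 were called higher (17.8%). Without a demand on the fold change, 9 of 10 were lower (28.7% of all genes) and 0 higher (29.3%), Ehf being the exception. The median log2 fold change of the 10 was -1.28, beside 0.01 over all genes. Between the 2 deletion groups, 1 of 10 was called lower in the libraries labelled as LATS1/2-Sox9-KO, Spdef (2.16% of all genes), and 0 were called higher (1.55%). The counts without a demand on the fold change were also 1 lower (3.33% of all genes) and 0 higher (3.13%).

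**Figure D1:**
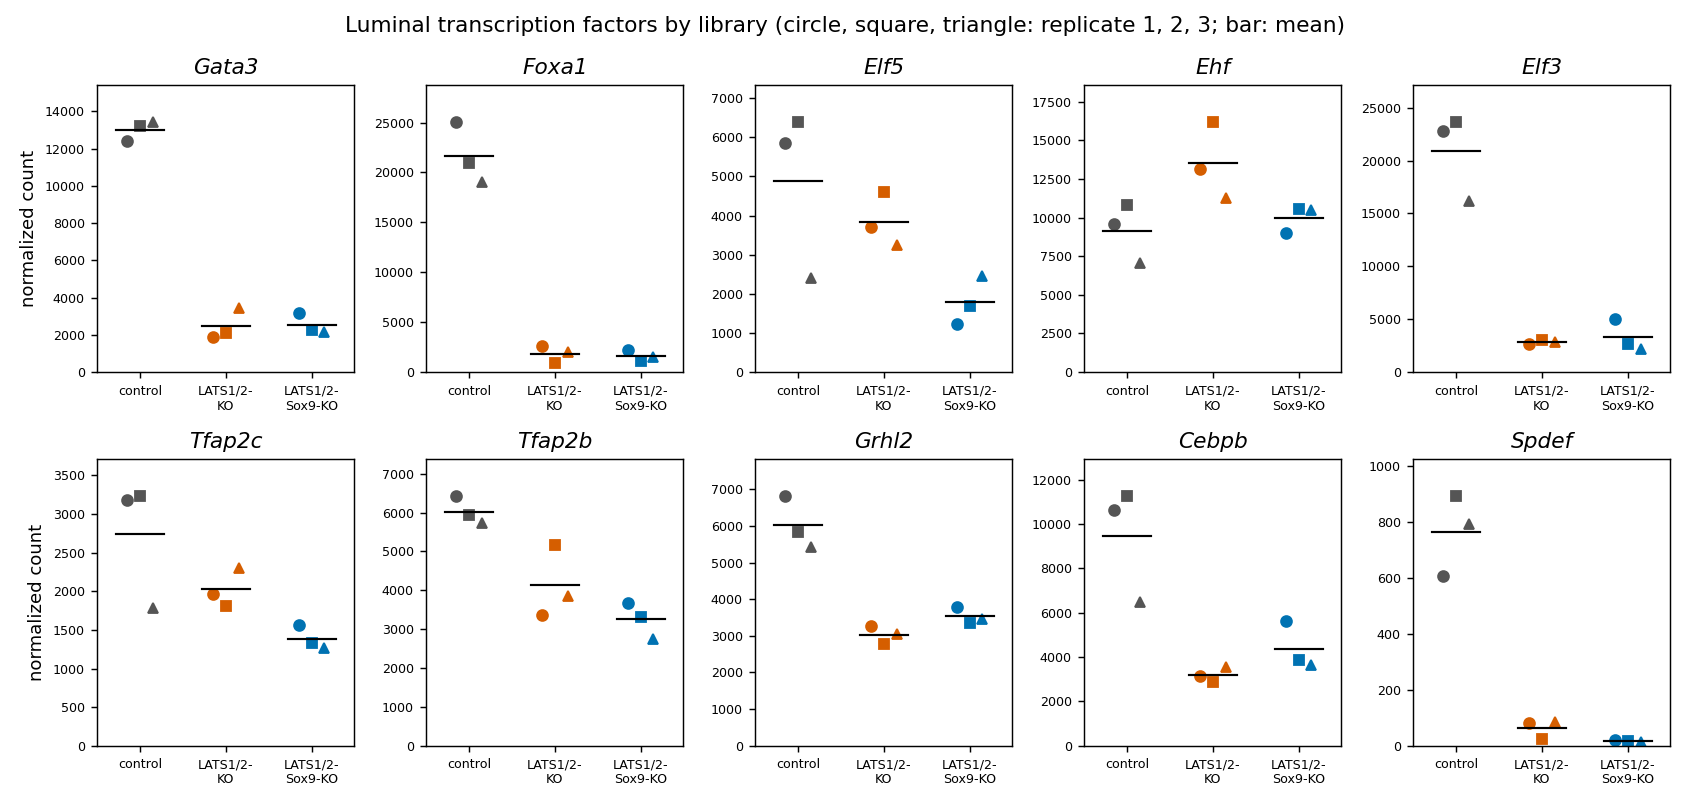
Normalized count (vertical axis, linear, from 0) of each of the 10 factors in the 9 libraries, with circles, squares and triangles for replicates 1, 2 and 3 and a bar for the mean of each genotype. Gata3, Foxa1, Elf3 and Spdef fall far below all control values in both deletion groups, while Ehf does not, and the triangle of control replicate 3 lies low for Elf5, Tfap2c and Cebpb.

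The sequences before the start sites of the 5 factors called lower in both comparisons with control are shown because these genes fell together. They come from RefSeq on GRCm38.p6, run 5′ to 3′ on the gene's strand, and begin 250 bases before the start site. They stop at the site or, where GENCODE M21 places an exon of the gene within the window, at that exon. The windows of Gata3 and Foxa1 lie inside the genes as GENCODE M21 places them, which reach to chr2:9890034 and chr12:57546916. For these 2 genes the RefSeq start used is thus not the outermost annotated one. Gata3 is at chr2:9878601-9878850 (minus strand), Foxa1 at chr12:57546122-57546361 (minus), Elf3 at chr1:135258569-135258722 (minus), Cebpb at chr2:167688665-167688914 (plus) and Spdef at chr17:27728956-27729201 (minus). Capitals mark matches, on either strand, to 10 short motifs: AGATAA of GATA factors, TGTTTAC of FOXA, AGGAAG and CCGGAA of ETS, GCCNNNGGC of AP-2, AACNNGTT of grainyhead-like, TTGCNNAA of C/EBP, GGAATG of TEAD, TGANTCA of AP-1 and ACAATGG of SOX.
Gata3: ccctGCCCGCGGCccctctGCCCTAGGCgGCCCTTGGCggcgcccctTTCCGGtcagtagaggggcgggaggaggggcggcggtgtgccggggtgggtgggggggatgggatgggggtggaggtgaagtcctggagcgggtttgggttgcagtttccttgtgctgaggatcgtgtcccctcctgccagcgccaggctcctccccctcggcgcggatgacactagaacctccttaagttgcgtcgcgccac
Foxa1: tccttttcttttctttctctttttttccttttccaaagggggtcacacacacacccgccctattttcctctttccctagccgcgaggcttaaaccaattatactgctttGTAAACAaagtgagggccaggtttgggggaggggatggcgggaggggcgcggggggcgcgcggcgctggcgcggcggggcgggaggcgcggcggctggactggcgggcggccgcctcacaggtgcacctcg
Elf3: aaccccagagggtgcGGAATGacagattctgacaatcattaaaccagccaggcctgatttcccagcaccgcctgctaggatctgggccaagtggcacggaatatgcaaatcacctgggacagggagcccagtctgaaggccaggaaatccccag
Cebpb: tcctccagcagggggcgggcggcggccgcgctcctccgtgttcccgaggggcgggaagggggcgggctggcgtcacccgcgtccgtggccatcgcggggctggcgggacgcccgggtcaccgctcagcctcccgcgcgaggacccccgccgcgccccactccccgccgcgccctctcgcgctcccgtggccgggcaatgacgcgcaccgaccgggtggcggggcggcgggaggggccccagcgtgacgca
Spdef: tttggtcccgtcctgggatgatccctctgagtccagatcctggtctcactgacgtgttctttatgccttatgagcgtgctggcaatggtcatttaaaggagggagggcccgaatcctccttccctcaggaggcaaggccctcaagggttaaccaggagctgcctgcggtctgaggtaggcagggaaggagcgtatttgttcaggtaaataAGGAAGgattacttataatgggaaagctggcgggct

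In Gata3 the capitals are 3 AP-2 matches and 1 ETS match (CCGGAA), in Foxa1 a match to the FOXA motif itself, in Elf3 a TEAD match and in Spdef an ETS match (AGGAAG), while Cebpb held none. Among 32851 promoter windows of the same 250 bases, GCCNNNGGC was found in 13.7%, CCGGAA in 12%, TGTTTAC in 3.17%, GGAATG in 12.6% and AGGAAG in 29.5%. AGATAA (9.99% of windows), AACNNGTT (3.64%) and TGANTCA (6.75%) were in none of the 8 windows listed for 7 of the factors, and TTGCNNAA (9.56%) and ACAATGG (3.02%) were only in windows of Elf5. The windows of the 5 genes were richer in G and C than the median promoter window (52.4%), from 52.8% in Spdef to 81.6% in Cebpb. A match is a run of letters and not a measured binding site.

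Gata3 (ENSMUSG00000015619) spans chr2:9857078-9890034 on the minus strand of GRCm38 in the GENCODE M21 annotation. Its normalized count was 12433, 13229 and 13415 in control replicates 1 to 3, 1905, 2113 and 3416 in the libraries labelled as LATS1/2-KO, and 3178, 2283 and 2132 in those labelled as LATS1/2-Sox9-KO. The control libraries lay close together and far above all 6 others, which overlapped among themselves. The mean was 5.26-fold lower in the libraries labelled as LATS1/2-KO than in the controls (log2 fold change -2.39, SE 0.232, adjusted p = 2.24e-05) and 5.15-fold lower in those labelled as LATS1/2-Sox9-KO (log2 fold change -2.36, SE 0.231, adjusted p = 1.84e-05). The 2 deletion groups differed by a log2 fold change of 0.03 (SE 0.221, adjusted p = 0.958).

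Gata3 was nearly the only GATA gene measured, with at least 98.5% of the GATA transcripts per kilobase of exon in every library, and none of the other 5 family members passed the filter on low counts. The annotation places 4930412O13Rik on the opposite strand of Gata3 with no shared exon. Its mean normalized count was 1973 in control, 146 in the libraries labelled as LATS1/2-KO and 136 in those labelled as LATS1/2-Sox9-KO. Exons of Gm13256 on the opposite strand cover 3.9% of the Gata3 exon bases. The methods name both same-strand counting and a kit that does not keep strand, so whether reads of such genes on the opposite strand were separated is not known. Exons of 9230102O04Rik cover 1.9% of the Gata3 exon bases on the same strand, where strand cannot separate them. Its mean normalized count was 158 in control, 73.9 in the libraries labelled as LATS1/2-KO and 39.9 in those labelled as LATS1/2-Sox9-KO.

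Foxa1 (ENSMUSG00000035451, chr12:57540628-57546916, minus strand) had normalized counts of 25018, 20984 and 19013 in control replicates 1 to 3, 2584, 881 and 2053 in the libraries labelled as LATS1/2-KO, and 2165, 1074 and 1506 in those labelled as LATS1/2-Sox9-KO. Every control library was several times above every other library, and replicate 2 was the lowest of both deletion groups. The mean was 11.8-fold lower in the libraries labelled as LATS1/2-KO than in the controls (log2 fold change -3.56, SE 0.391, adjusted p = 4.79e-05) and 13.7-fold lower in those labelled as LATS1/2-Sox9-KO (log2 fold change -3.78, SE 0.395, adjusted p = 2.79e-05). The deletion groups overlapped and differed by a log2 fold change of -0.22 (SE 0.356, adjusted p = 0.775). Foxa1 made up at least 96.4% of FOXA transcripts per kilobase of exon in every library, and neither Foxa2 nor Foxa3 passed the filter on low counts.

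The epithelial ETS factors parted ways. Elf3 and Spdef fell in both deletion groups, Elf5 was called lower in the libraries labelled as LATS1/2-Sox9-KO alone, and Ehf was not lower than control in either. Elf3 (ENSMUSG00000003051, chr1:135253575-135258568, minus strand) had normalized counts of 22825, 23611 and 16182 in control, 2678, 2986 and 2878 in the libraries labelled as LATS1/2-KO, and 5051, 2614 and 2185 in those labelled as LATS1/2-Sox9-KO. Control replicate 3 was the lowest control and still more than 3-fold above the highest deletion library, LATS1/2-Sox9-KO replicate 1. The mean was 7.33-fold lower in the libraries labelled as LATS1/2-KO than in the controls (log2 fold change -2.87, SE 0.296, adjusted p = 3.29e-05) and 6.36-fold lower in those labelled as LATS1/2-Sox9-KO (log2 fold change -2.67, SE 0.294, adjusted p = 3.90e-05).

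Spdef (ENSMUSG00000024215, chr17:27714352-27728955, minus strand), a factor of secretory luminal cells, was the least abundant of the 10. Its normalized count was 605, 891 and 792 in control replicates 1 to 3, 82.2, 25.4 and 84.8 in the libraries labelled as LATS1/2-KO, and 19.5, 16.9 and 13.7 in those labelled as LATS1/2-Sox9-KO. The 3 groups did not overlap, and the last values rest on 21, 17 and 15 raw counts. Against control, the log2 fold change was -3.57 (SE 0.418, adjusted p = 6.96e-05) in the libraries labelled as LATS1/2-KO and -5.50 (SE 0.470, adjusted p = 8.10e-06) in those labelled as LATS1/2-Sox9-KO. Between the deletion groups it was -1.93 (SE 0.435, adjusted p = 0.0314), a call that was lost in 9 of 19 alternative fits, where the adjusted p reached 0.441. Among these were the fits that left out control replicate 2 (adjusted p = 0.0516), LATS1/2-KO replicate 1 (0.0514) or 3 (0.102), and each LATS1/2-Sox9-KO replicate in turn (0.075, 0.11 and 0.1).

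Elf5 (ENSMUSG00000027186, chr2:103411688-103450989, plus strand) had normalized counts of 5851, 6382 and 2413 in control replicates 1 to 3, 3705, 4590 and 3237 in the libraries labelled as LATS1/2-KO, and 1239, 1690 and 2449 in those labelled as LATS1/2-Sox9-KO. Control replicate 3 lay below every library labelled as LATS1/2-KO and just below LATS1/2-Sox9-KO replicate 3, while the 2 deletion groups did not overlap. Against control, the log2 fold change was -0.35 (SE 0.347, adjusted p = 0.427) in the libraries labelled as LATS1/2-KO and -1.45 (SE 0.354, adjusted p = 0.00558) in those labelled as LATS1/2-Sox9-KO, a call lost in 1 of 19 alternatives, glmTreat (adjusted p = 0.13). Without control replicate 3 these values were -0.68 (adjusted p = 0.0515) and -1.76 (adjusted p = 0.000434).

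Between the deletion groups, the log2 fold change of Elf5 was -1.10 (SE 0.352, adjusted p = 0.0965) and missed the threshold. It was called lower in 4 of 19 alternative fits, with adjusted p = 0.0176 by DESeq2, 0.034 with no filter on low counts, 0.0458 in a fit of those 2 groups alone and 0.0299 without control replicate 3. The estimate itself lay between -1.37 and -0.87 in all 19.

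Ehf (ENSMUSG00000012350, chr2:103263433-103303278, minus strand) is the neighbour of Elf5, 108409 bases away with no protein-coding gene between them. Its normalized count was 9563, 10797 and 7060 in control, 13141, 16156 and 11262 in the libraries labelled as LATS1/2-KO, and 8965, 10549 and 10461 in those labelled as LATS1/2-Sox9-KO. All 3 libraries labelled as LATS1/2-KO lay above all others, whereas the remaining groups overlapped. Ehf was 1.48-fold higher in the libraries labelled as LATS1/2-KO than in the controls (log2 fold change 0.56, SE 0.177, adjusted p = 0.0203), which passed the adjusted p and not the 2-fold threshold. Without control replicate 3 the log2 fold change was 0.40 (adjusted p = 0.0694), without LATS1/2-KO replicate 2 it was 0.40 (adjusted p = 0.0915), and with an adjustment for GC content, added after the data were seen, it was 0.17 (adjusted p = 0.417). In the libraries labelled as LATS1/2-Sox9-KO it was 0.13 against control (SE 0.176, adjusted p = 0.556) and -0.44 against the libraries labelled as LATS1/2-KO (SE 0.176, adjusted p = 0.177).

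**Figure D2:**
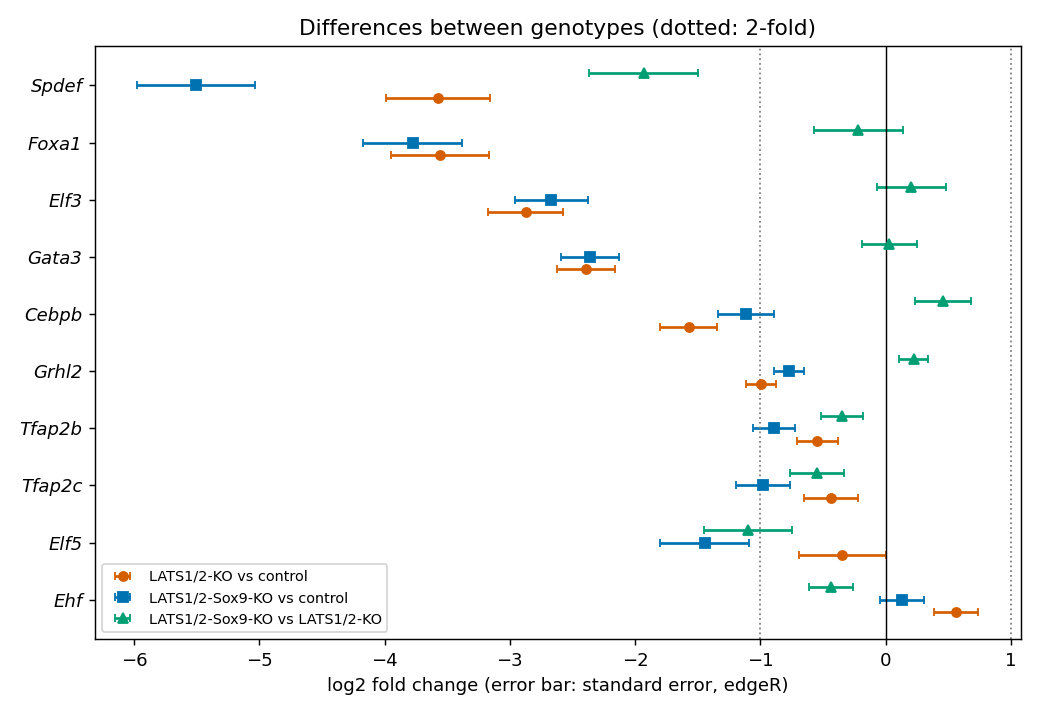
Log2 fold change (horizontal axis) of each factor in the 3 comparisons, with its SE from edgeR, and dotted lines at a 2-fold difference. Both comparisons with control share the control libraries, and their estimates lie from -5.50 (Spdef) to 0.56 (Ehf), while between the deletion groups only Spdef and Elf5 lie below -1.

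The make-up of the epithelial ETS factors differed between control and the deletion groups. Per kilobase of exon, Elf3 made up 77.2% ± 1.32 (SD, n = 3) of the summed normalized counts of Elf3, Ehf, Elf5 and Spdef in control, 29.5% ± 3.36 (SD, n = 3) in the libraries labelled as LATS1/2-KO and 40.2% ± 13.5 (SD, n = 3) in the ones labelled as LATS1/2-Sox9-KO. The share of Ehf went the other way, with 13.4% ± 0.445, 55% ± 2.98 and 50.8% ± 10.1 (SD, n = 3 each) in the same order. The shares of Elf3 and Ehf did not overlap between control and either deletion group. LATS1/2-Sox9-KO replicate 1 alone kept more Elf3 (55.5%) than Ehf (39.2%). Elf5 had 6.55% ± 1.86 in control, 14.8% ± 0.706 in the libraries labelled as LATS1/2-KO and 8.79% ± 3.78 in the ones labelled as LATS1/2-Sox9-KO (SD, n = 3 each). The shares of a library add up to the whole, so a lower Elf3 raises the other shares even where their counts do not rise. The mean normalized count of Ehf per kilobase was 1639 in control, 2425 in LATS1/2-KO and 1792 in LATS1/2-Sox9-KO libraries. That of Elf5 was 831, 654 and 305 in the same order. These shares are descriptions and were not tested.

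The other ETS genes did not move as one. Of 19 tested, 5 were called lower (17.5% of all genes) and 2 higher (17.1%) in the libraries labelled as LATS1/2-KO than in control, and the median log2 fold change was -0.29. Ets2, a widely expressed ETS factor, had 78725, 71221 and 54208 normalized counts in control, 9678, 8034 and 10725 in the libraries labelled as LATS1/2-KO, and 15102, 12732 and 10966 in those labelled as LATS1/2-Sox9-KO, a range in control that no deletion library reached (log2 fold change -2.84, SE 0.185, adjusted p = 3.12e-06, for LATS1/2-KO). Etv6, a repressor of the family, was lower (log2 fold change -2.06, adjusted p = 3.24e-06), as were Etv1 (-3.18, adjusted p = 0.00125), Elk1 (-1.06, adjusted p = 0.000194) and Etv3 (-1.03, adjusted p = 0.00027). Elf4 (log2 fold change 1.44, adjusted p = 0.000205) and Etv4 (1.12, adjusted p = 0.0111) were called higher. Etv4 was not called without control replicate 3 (0.92) or without LATS1/2-KO replicate 3 (0.68), and Etv3 was not without control replicate 1 (-0.93) or 2 (-0.98) or LATS1/2-KO replicate 2 (-0.95). Ets1 did not pass in any of the 3 comparisons, with log2 fold changes of -0.07, -0.30 and -0.23. Between the deletion groups 1 of 19 was called, Etv5 (2.16% of all genes lower), which was lower in the libraries labelled as LATS1/2-Sox9-KO (log2 fold change -1.76, SE 0.281, adjusted p = 0.00974).

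**Figure D3:**
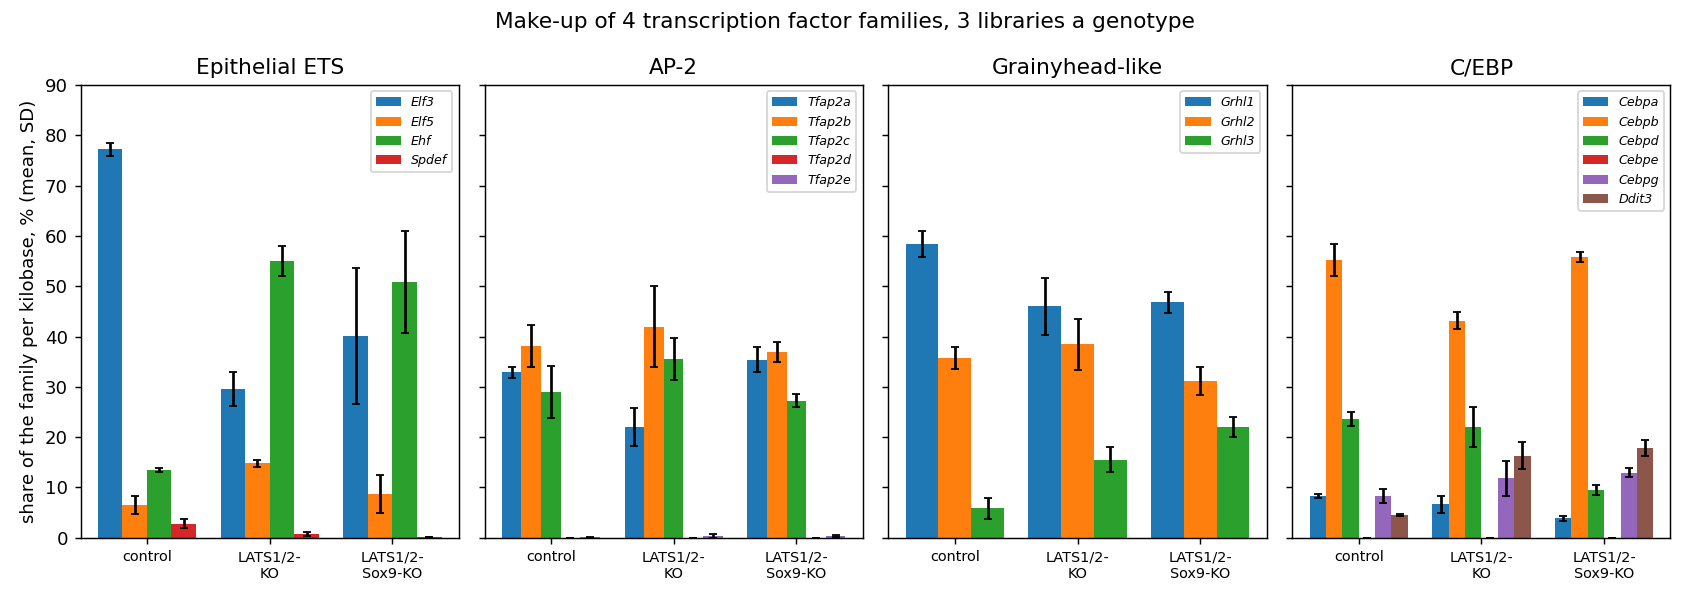
Share of each gene in its family (vertical axis, percent of the family's normalized counts per kilobase of exon, bars from 0, mean with SD, n = 3 libraries) for the epithelial ETS, AP-2, grainyhead-like and C/EBP families. Elf3 makes up 77.2% of the epithelial ETS factors in control, and Ehf makes up 55% in the libraries labelled as LATS1/2-KO. Shares in a family add up to the whole, so a fall of any gene raises the shares of the others.

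In the main fit neither Tfap2b nor Tfap2c was called in any comparison, and each differed from control by less than 2-fold. In the libraries labelled as LATS1/2-Sox9-KO against control, Tfap2c was called lower in 5 of 19 alternative fits and Tfap2b in 1. The estimates there reached -1.20 for Tfap2c and -1.06 for Tfap2b. Tfap2b (ENSMUSG00000025927, chr1:19208914-19238576, plus strand) had normalized counts of 6422, 5936 and 5719 in control, 3374, 5169 and 3858 in the libraries labelled as LATS1/2-KO, and 3681, 3322 and 2754 in those labelled as LATS1/2-Sox9-KO. Both deletion groups lay below control and overlapped each other. Against control, the log2 fold change was -0.54 (SE 0.166, adjusted p = 0.018) in the libraries labelled as LATS1/2-KO and -0.89 (SE 0.167, adjusted p = 0.00115) in those labelled as LATS1/2-Sox9-KO. The first passed the adjusted p in 15 of 19 alternative fits. Among the others were the fits without control replicate 1 (adjusted p = 0.0609) and without LATS1/2-KO replicate 1 (0.0563) or 3 (0.0647).

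Tfap2c (ENSMUSG00000028640, chr2:172549593-172558622, plus strand), which is known to hold the luminal state, had 3187, 3231 and 1788 normalized counts in control, 1965, 1806 and 2301 in the libraries labelled as LATS1/2-KO, and 1565, 1333 and 1265 in those labelled as LATS1/2-Sox9-KO. As for Elf5, control replicate 3 was far below the other controls and just below the lowest of the libraries labelled as LATS1/2-KO, while the libraries labelled as LATS1/2-Sox9-KO were the lowest of all. The log2 fold change against control was -0.43 (SE 0.215, adjusted p = 0.111) in the libraries labelled as LATS1/2-KO and -0.98 (SE 0.217, adjusted p = 0.00312) in those labelled as LATS1/2-Sox9-KO. Without control replicate 3 these were -0.68 (adjusted p = 0.00384) and -1.20 (adjusted p = 0.000136), and the second was then called lower. Tfap2a, the other AP-2 gene tested, was called lower in the libraries labelled as LATS1/2-KO (log2 fold change -1.28, SE 0.183, adjusted p = 0.000245), with 4482, 4160 and 3512 normalized counts in control and 1712, 1386 and 1912 there. In those labelled as LATS1/2-Sox9-KO, Tfap2a had 3055, 2168 and 2064 (log2 fold change against control -0.74, adjusted p = 0.00567).

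Grhl2 (ENSMUSG00000022286, chr15:37233036-37363569, plus strand) had normalized counts of 6812, 5846 and 5435 in control, 3255, 2769 and 3058 in the libraries labelled as LATS1/2-KO, and 3788, 3344 and 3469 in those labelled as LATS1/2-Sox9-KO. The spread within each group was small, and the groups did not overlap. Its mean was 1.99-fold lower in the libraries labelled as LATS1/2-KO than in the controls (log2 fold change -0.99, SE 0.118, adjusted p = 7.45e-05), just short of the 2-fold threshold, which it passed in 9 of 19 alternative fits, at -1.08 without control replicate 3. In the libraries labelled as LATS1/2-Sox9-KO it was 1.71-fold lower than in the controls (log2 fold change -0.77, SE 0.117, adjusted p = 0.000307).

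Of the other grainyhead-like genes, Grhl1 was called lower in the libraries labelled as LATS1/2-KO (log2 fold change -1.43, SE 0.133, adjusted p = 1.83e-05). Grhl3, known from barrier-forming epithelia, had 350, 432 and 187 normalized counts in control, 343, 379 and 473 in the libraries labelled as LATS1/2-KO, and 883, 899 and 670 in those labelled as LATS1/2-Sox9-KO. The last group was above all other libraries (log2 fold change against control 1.34, SE 0.291, adjusted p = 0.00283, and against LATS1/2-KO 1.04, SE 0.288, adjusted p = 0.0626). The share of Grhl3 in the family per kilobase was 5.84% ± 2.02, 15.6% ± 2.44 and 22.1% ± 1.96 (SD, n = 3 each) in control, LATS1/2-KO and LATS1/2-Sox9-KO libraries.

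Cebpb (ENSMUSG00000056501, chr2:167688915-167690418, plus strand), a gene of 1 exon, had normalized counts of 10637, 11263 and 6507 in control, 3167, 2862 and 3532 in the libraries labelled as LATS1/2-KO, and 5621, 3864 and 3649 in those labelled as LATS1/2-Sox9-KO. No 2 groups overlapped, although control replicate 3 and LATS1/2-Sox9-KO replicate 1 came close. The mean was 2.97-fold lower in the libraries labelled as LATS1/2-KO than in the controls (log2 fold change -1.57, SE 0.228, adjusted p = 0.000264) and 2.16-fold lower in those labelled as LATS1/2-Sox9-KO (log2 fold change -1.11, SE 0.226, adjusted p = 0.00186). The second call was lost in 4 of 19 alternative fits. Its adjusted p was at most 0.05 in 18 of the 19 and reached 0.353 in the other. It passed the adjusted p and fell short of 2-fold without control replicate 2 (-0.97), without LATS1/2-Sox9-KO replicate 3 (-0.98) and with the GC adjustment (-0.60). Exons of Tmem189 on the opposite strand cover 20.7% of the Cebpb exon, and whether reads there were separated by strand is not known. The mean normalized count of Tmem189 was 2693 in control, 1768 in the libraries labelled as LATS1/2-KO and 1975 in those labelled as LATS1/2-Sox9-KO.

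Cebpa (log2 fold change -1.51, SE 0.256, adjusted p = 0.000686) and Cebpd (-1.29, SE 0.247, adjusted p = 0.00146) were called lower in the libraries labelled as LATS1/2-KO than in control. Cebpd had 3114, 4209 and 4859 normalized counts in those libraries and 2571, 1437 and 1616 in those labelled as LATS1/2-Sox9-KO, without overlap (log2 fold change -1.12, SE 0.246, adjusted p = 0.0295). This call of Cebpd was lost without LATS1/2-KO replicate 2 (adjusted p = 0.0725) or 3 (0.101) and without LATS1/2-Sox9-KO replicate 2 (0.119) or 3 (0.101). Ddit3, the C/EBP-like factor of the stress response, passed the adjusted p as higher than control in both deletion groups (log2 fold changes 0.66 and 0.88, adjusted p = 0.0123 and 0.00259). Its share of the family per kilobase was 4.47% ± 0.236 in control, 16.3% ± 2.71 in the libraries labelled as LATS1/2-KO and 17.9% ± 1.63 in the ones labelled as LATS1/2-Sox9-KO (SD, n = 3 each).

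The order of the 10 factors was not the same in the 3 genotypes. In control, the level per kilobase of exon was highest for Elf3 (mean normalized count per kilobase 9415), followed by Foxa1 (6514), Cebpb (6296) and Gata3 (3274). The ranges over libraries of Elf3, Foxa1 and Cebpb overlapped from each to the next, while Gata3 lay below them. Ehf came next (1639), apart from its neighbours on both sides, and below it Tfap2b (951), Elf5 (831), Tfap2c (744) and Grhl2 (700) each overlapped the next. Tfap2b lay wholly above Tfap2c and Grhl2, and Spdef (331) lay below all of them.

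In the libraries labelled as LATS1/2-KO, Ehf led with 2425 per kilobase, and its range overlapped that of Cebpb (2119). Elf3 came next with 1284, apart from both sides. Elf5 (654), Tfap2b (652), Gata3 (623), Foxa1 (553) and Tfap2c (550) overlapped one another, Grhl2 (352) lay below Tfap2c, and Spdef was at 27.8. In the libraries labelled as LATS1/2-Sox9-KO, Cebpb led with 2911 per kilobase, above the range of Ehf (1792), which overlapped that of Elf3 (1481). Gata3 (636), Tfap2b (513), Foxa1 (475), Grhl2 (410), Tfap2c (377) and Elf5 (305) followed, each overlapping the next, and Spdef was at 7.25.

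**Figure D4:**
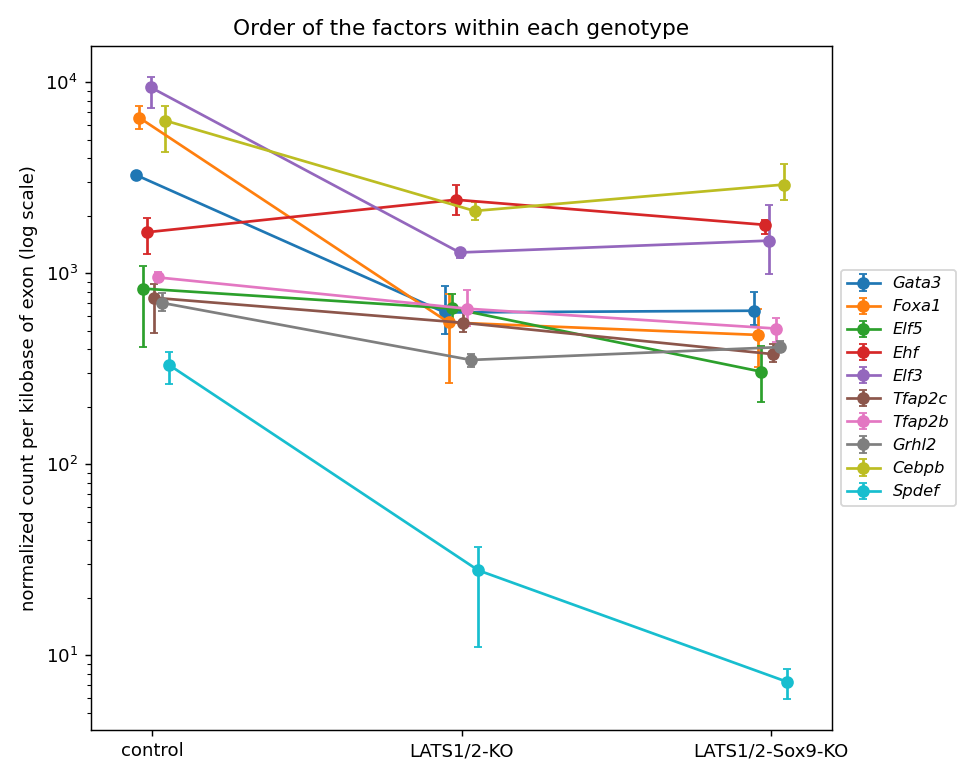
Level of each factor (vertical axis, normalized count per kilobase of exon, log scale) in the 3 genotypes, as the mean with bars from the lowest to the highest of 3 libraries. Elf3 leads in control and not in the deletion groups, while Ehf goes from 1639 to 2425 between control and LATS1/2-KO, and Spdef ends at 7.25.

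Summed over the 10 factors, the normalized counts per kilobase were 33657, 33674 and 24752 in control replicates 1 to 3, 9036, 9363 and 9319 in the libraries labelled as LATS1/2-KO, and 10738, 8107 and 7880 in those labelled as LATS1/2-Sox9-KO. Every control library was thus more than 2-fold above every deletion library, and control replicate 3 was the lowest control. Within this sum, Elf3, Foxa1 and Cebpb together made up most of the control level, and the share of Ehf was 5.32% ± 0.372 in control, 26.2% ± 4.64 in the libraries labelled as LATS1/2-KO and 20.7% ± 4.97 in the ones labelled as LATS1/2-Sox9-KO (SD, n = 3 each). Such a share also rises when the other factors fall.

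The likeness of profiles was measured as the root mean square difference of log2 normalized counts over the 9 libraries, each centred on the gene's control mean. Tfap2b and Tfap2c were nearest to each other (0.309), and so were Gata3 and Elf3 (0.437). Grhl2 was nearest to Tfap2b (0.341), Cebpb to Grhl2 (0.424), Elf5 to Tfap2c (0.475), Ehf to Tfap2c (0.876), Foxa1 to Elf3 (0.917) and Spdef to Foxa1 (0.982), so the last 3 had no close partner among the 10.

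Among 13162 other genes whose mean normalized count reached 100, the 5 nearest to the median profile of the factors called lower in the libraries labelled as LATS1/2-KO were Ccdc136 (0.263), Sbno2 (0.267), Fosb (0.272), Tgm2 (0.279) and Arhgap26 (0.293). Fosb, an AP-1 subunit, had a mean normalized count of 375690 in control, 53479 in the libraries labelled as LATS1/2-KO and 61333 in those labelled as LATS1/2-Sox9-KO. Tgm2, a transglutaminase, had 153672, 22440 and 22238 in the same order. These genes were picked for their pattern, so the values are a description.

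Other luminal regulators had a lower median than the 10 factors. Of 15 of them tested in the libraries labelled as LATS1/2-KO against control, 12 were called lower (17.5% of all genes) and 1 higher (17.1%), and the median log2 fold change was -3.0. Pgr, the progesterone receptor, had 17143, 20895 and 30018 normalized counts in control, 658, 121 and 358 in the libraries labelled as LATS1/2-KO, and 43.6, 15.9 and 44.6 in those labelled as LATS1/2-Sox9-KO. The 3 groups did not overlap, and Pgr was also called lower between the deletion groups (log2 fold change -3.43, SE 0.600, adjusted p = 0.0136), though not without LATS1/2-Sox9-KO replicate 2 (-3.06, adjusted p = 0.0589). Id2, an inhibitor of helix-loop-helix factors that is needed for alveolar development, was the 1 called higher, with 1420, 1412 and 1445 in control, 2728, 4126 and 3068 in the libraries labelled as LATS1/2-KO, and 9849, 13288 and 10226 in those labelled as LATS1/2-Sox9-KO. It rose in each comparison (log2 fold changes 1.21, 2.96 and 1.75, adjusted p = 0.0002, 1.36e-06 and 0.00147). Lmo4, a LIM-domain factor, also rose in the libraries labelled as LATS1/2-KO, by less than 2-fold (log2 fold change 0.82, SE 0.238, adjusted p = 0.0139), with 3621, 3967 and 2132 normalized counts in control and 4243, 6687 and 6270 there. Greb1, a target of the estrogen receptor, was called lower (-5.20, SE 1.03, adjusted p = 0.00177). Xbp1, a secretory factor, passed the adjusted p at a smaller fold (log2 fold change -0.47, adjusted p = 0.00215, in the libraries labelled as LATS1/2-KO).

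Markers of both luminal lineages were measured beside the factors. The gene lists overlap, so their counts and medians are not separate results. Esr1, Pgr, Prlr and Cited1 are in the hormone-sensing list and among the other luminal regulators. Prom1 is in the hormone-sensing and the luminal identity lists, and Trp63 in both basal lists. Of 13 hormone-sensing genes tested, 10 were called lower (17.5% of all genes) and 1 higher (17.1%) in the libraries labelled as LATS1/2-KO than in control, and the median log2 fold change was -4.32. The higher gene was the iron exporter Slc40a1 (log2 fold change 1.79, SE 0.196, adjusted p = 4.66e-05). Of 12 progenitor and alveolar genes, 6 were called lower and 1 higher, against the same shares of all genes, and the median was -0.85. Fxyd2, an ion transport regulator of hormone-sensing cells, had 9009, 8341 and 12026 normalized counts in control, 69.2, 40.7 and 25.5 in the libraries labelled as LATS1/2-KO, and 271, 66.8 and 151 in those labelled as LATS1/2-Sox9-KO. The 1 progenitor gene called higher was Lcn2, a secreted lipocalin (log2 fold change 1.08, SE 0.318, adjusted p = 0.0155). Without control replicate 3 it was at 0.75 (adjusted p = 0.0186) and without LATS1/2-KO replicate 2 at 0.89 (adjusted p = 0.0595), and was called in neither. By contrast, Plet1, a surface protein of luminal progenitors, fell (-3.87, SE 0.272, adjusted p = 4.33e-06).

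Between the deletion groups, 4 of the 12 progenitor and alveolar genes were called lower in the libraries labelled as LATS1/2-Sox9-KO (2.16% of all genes) and 0 higher, and the median log2 fold change was -1.0. Tspan8 (log2 fold change -2.01, adjusted p = 0.0274), Lcn2 (-1.31, adjusted p = 0.0415), Plet1 (-1.23, adjusted p = 0.0214) and Cd14 were these 4. The count rested on single libraries. It was 0 without LATS1/2-KO replicate 3 or LATS1/2-Sox9-KO replicate 2 or 3, 1 without LATS1/2-Sox9-KO replicate 1, 2 without LATS1/2-KO replicate 2 and 5 without LATS1/2-KO replicate 1. Of 7 milk genes tested, 4 were called lower in the libraries labelled as LATS1/2-KO than in control (Lalba, Olah, Btn1a1 and Xdh, against 17.5% of all genes), and 6 were in those labelled as LATS1/2-Sox9-KO (19.6%). Of these 6, Csn2 was not called without replicate 1 or 2 of control or of LATS1/2-Sox9-KO. Olah was not called there without control replicate 2 or LATS1/2-Sox9-KO replicate 1 or 3. Without control replicate 3, Csn3 was also called lower in LATS1/2-KO (-1.12) and Csn1s1 in LATS1/2-Sox9-KO (-3.05). The milk fat globule gene Btn1a1 had 33963, 31370 and 10453 normalized counts in control and 879, 2595 and 1809 in the libraries labelled as LATS1/2-KO (log2 fold change -3.84, SE 0.521, adjusted p = 0.000174). In the comparison of the deletion groups 1 of 7 was lower (2.16% of all genes), the casein gene Csn3. Csn3 had 39551, 45732 and 28165 normalized counts in control, 19771, 20118 and 19695 in the libraries labelled as LATS1/2-KO, and 9287, 5101 and 6549 in those labelled as LATS1/2-Sox9-KO. The groups did not overlap (log2 fold change between the deletion groups -1.51, SE 0.226, adjusted p = 0.008).

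**Figure D5:**
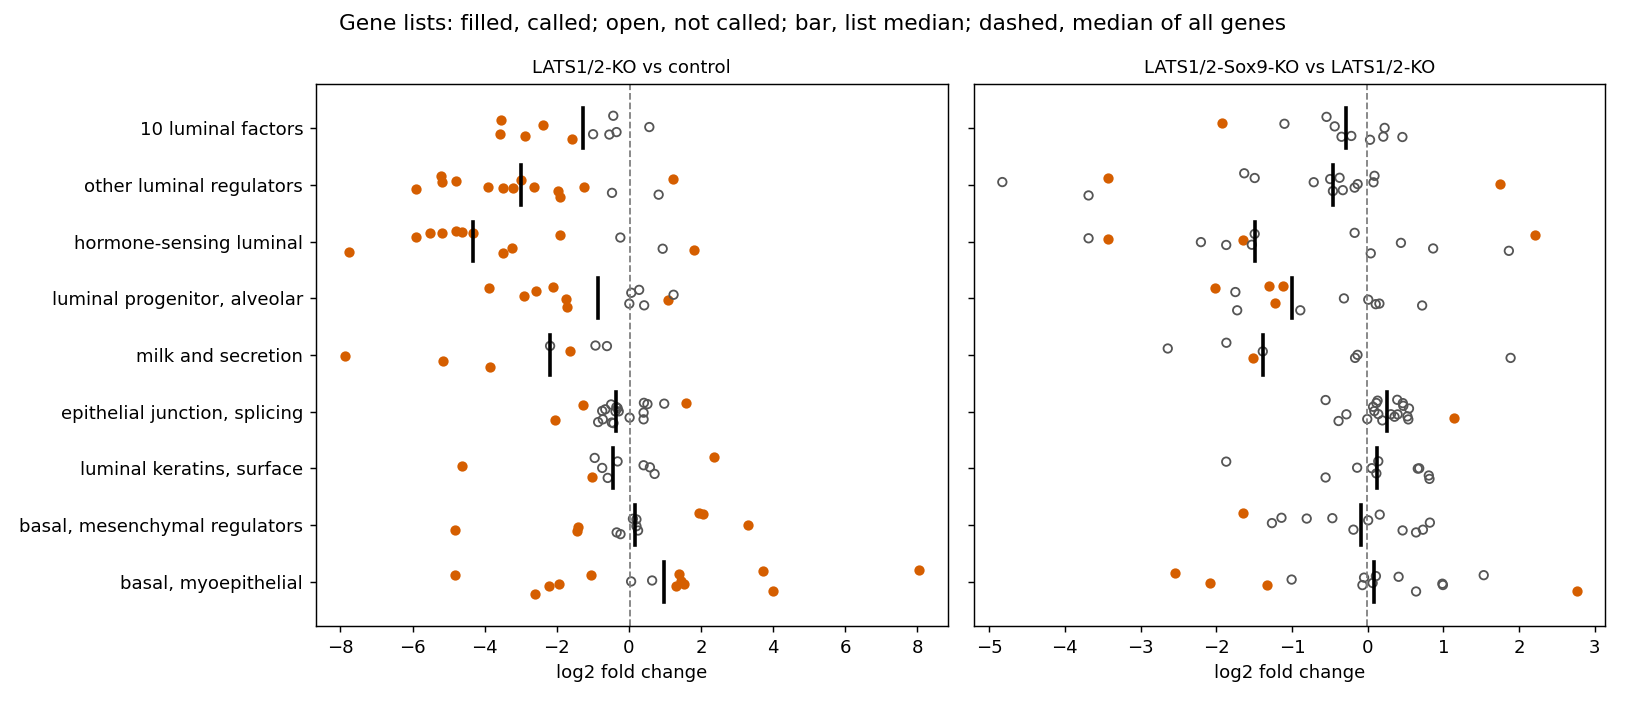
Log2 fold change (horizontal axis) of each tested gene of 9 lists, for LATS1/2-KO against control (left) and LATS1/2-Sox9-KO against LATS1/2-KO (right), with filled points for called genes, open points for the others, a bar at the list median and a dashed line at the median of all genes. In the left panel the medians lie at -1.28 for the 10 factors, -3.0 for other luminal regulators and -4.32 for hormone-sensing genes, and in the right panel most points are open. Some genes are shared between lists.

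Genes of epithelial junctions and splicing, which Grhl2 and Elf3 are known to serve, were measured next. Of 20 tested in the libraries labelled as LATS1/2-KO against control, 2 were called lower (Tjp3 and St14, against 17.5% of all genes) and 1 higher (Ovol2, against 17.1%). Lad1, a basement membrane anchor, was just under the 2-fold threshold (log2 fold change 0.98, adjusted p = 0.000154) and was also called higher without control replicate 1 (1.03) or LATS1/2-KO replicate 1 (1.05) or 2 (1.03). By adjusted p alone 9 were lower (27.1% of all genes) and 4 higher (28.7%), and the median log2 fold change was -0.36. Tjp3, a tight junction scaffold, had 6617, 7060 and 5877 normalized counts in control and 1623, 1432 and 1664 in the libraries labelled as LATS1/2-KO (log2 fold change -2.05, SE 0.195, adjusted p = 2.03e-05). Ovol2, a zinc-finger keeper of the epithelial state, had 216, 294 and 215 in control and 652, 687 and 817 there (log2 fold change 1.57, SE 0.185, adjusted p = 7.35e-05). Between the deletion groups 1 of 20 was called (1.55% of all genes higher), the vesicle gene Rab25, which was higher in the libraries labelled as LATS1/2-Sox9-KO (1.14, SE 0.146, adjusted p = 0.00441).

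Of 12 basal and mesenchymal regulators tested, 3 were called higher (Twist1, Zeb1 and Zeb2, against 17.1% of all genes) and 3 lower (Trp63, Id4 and Egr2, against 17.5%) in the libraries labelled as LATS1/2-KO than in control, and the median log2 fold change was 0.16. Trp63, the basal master regulator p63, had 374, 2153 and 2133 normalized counts in control, 70.2, 40.7 and 53.8 in the libraries labelled as LATS1/2-KO, and 32.5, 110 and 114 in those labelled as LATS1/2-Sox9-KO. All 6 deletion libraries lay below all controls, and control replicate 1 was far below the other 2. Zeb1, a repressor of epithelial genes, had 23.2, 34.0 and 14.9 in control and 108, 55.9 and 115 in the libraries labelled as LATS1/2-KO (log2 fold change 1.94, SE 0.466, adjusted p = 0.00534), a low level in both.

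Markers of basal and myoepithelial cells moved in both directions with these results. Of 14, 7 were called higher (17.1% of all genes) and 5 lower (17.5%) in the libraries labelled as LATS1/2-KO than in control, and all 14 had counts. Their summed normalized count was 26556, 30578 and 29617 in control, 286650, 178488 and 176395 in the libraries labelled as LATS1/2-KO, and 179954, 296166 and 402430 in those labelled as LATS1/2-Sox9-KO, with Krt14, a keratin of basal cells, as the most abundant gene. Krt14 itself had 909, 501 and 606 in control, 252969, 140251 and 139506 in the libraries labelled as LATS1/2-KO, and 117088, 239974 and 349679 in those labelled as LATS1/2-Sox9-KO. Without Krt14 the other 13 markers summed to 28245 ± 2312, 36269 ± 2340 and 57270 ± 5143 (SD, n = 3 each) in the same order. The part of these markers in the lower luminal factors was not tested.

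Markers of other cell types were a small part of every library, at most 0.0504% of the counts for any of the 4 lists. The 10 fibroblast markers, led by Col6a3, summed to 4015, 10289 and 27728 normalized counts in control, 2717, 999 and 1898 in the libraries labelled as LATS1/2-KO, and 504, 705 and 1222 in those labelled as LATS1/2-Sox9-KO. Control replicate 3 had the most, in the same library in which 8 of the 10 factors were lowest among controls. In the libraries labelled as LATS1/2-KO 3 of the 10 were called lower (Dcn, Col6a3 and Cxcl12, against 17.5% of all genes) and 2 higher (Lum and Mfap5, against 17.1%). Dcn and Lum were each lost in several of the fits that left out 1 library, Dcn without control replicate 3 among them (adjusted p = 0.18). The 10 endothelial markers, led by Vwf, summed to 5984 ± 579 in control, 1052 ± 148 in the libraries labelled as LATS1/2-KO and 887 ± 403 in the ones labelled as LATS1/2-Sox9-KO (SD, n = 3 each), with 2 called lower (Vwf and Egfl7) and 1 higher (Kdr, not without LATS1/2-KO replicate 3) in LATS1/2-KO, against the same shares of all genes. Without LATS1/2-KO replicate 1, Cldn5 was called higher as well (log2 fold change 2.6). Vwf alone carried the lower sum, since the other 9 markers summed to 851 ± 108 in control, 890 ± 52.7 in the libraries labelled as LATS1/2-KO and 767 ± 349 in the ones labelled as LATS1/2-Sox9-KO (SD, n = 3 each).

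The 10 immune markers, led by Csf1r, summed to 921 ± 199 in control, 3202 ± 1155 in the libraries labelled as LATS1/2-KO and 4054 ± 677 in the ones labelled as LATS1/2-Sox9-KO (SD, n = 3 each). Without Csf1r the other 9 summed to 763 ± 159, 892 ± 642 and 816 ± 156 (SD, n = 3 each) in the same order. The lymphocyte markers Cd3e and Ms4a1 were at 0 in every library, while the B-cell marker Cd79a had 11 to 63 raw counts in each of the 9. Of the 7 tested 1 was called higher in LATS1/2-KO (17.1% of all genes), Csf1r, and 0 were called lower (17.5%). Without control replicate 3 or LATS1/2-KO replicate 3 Adgre1 was called higher as well (log2 fold changes 3.22 and 2.41), and without LATS1/2-KO replicate 1 Cd79a (-1.44) and Itgam (-2.24) were called lower. The 8 adipocyte markers, led by Fabp4, summed to 573, 451 and 619 in control, 664, 5406 and 2639 in the libraries labelled as LATS1/2-KO, and 408, 1792 and 1483 in those labelled as LATS1/2-Sox9-KO. Of these 8, 6 were called higher (17.1% of all genes) and 1 lower (Pparg, 17.5%) in LATS1/2-KO. With 1 library left out between 2 and 6 were higher (2 without control replicate 2, 3 without LATS1/2-KO replicate 2, 4 without control replicate 1 or 3), and Pparg was not called without control replicate 3. LATS1/2-KO replicate 2, which had the most adipocyte marker counts, differed from its group in both directions. It was the lowest of the group for Foxa1, Tfap2c, Grhl2, Cebpb and Spdef. It was the highest for Elf5, Ehf, Elf3 and Tfap2b, and lay between the others for Gata3. The part of these cell types in the results for the luminal factors was not tested.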

How the data were processed

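Raw counts per gene were deposited by the authors for each library. They aligned reads to mm10 with STAR 2.6.0c and counted uniquely aligned, same-strand pairs on non-mitochondrial Ensembl genes with featureCounts (Subread 1.6.2). Libraries were made with a TruSeq RNA v2 kit, which does not mark strand, so it is not known whether overlapping genes on opposite strands were separated. From these counts, TMM factors, filterByExpr and a quasi-likelihood model of 3 group means over all 9 libraries were computed with edgeR 4.0.16 in R 4.3.3, and p-values were adjusted over all 19357 genes tested in each comparison. The thresholds (absolute log2 fold change above 1, adjusted p at most 0.05) follow the study's methods. Standard errors were derived from the model's F statistic. The code was tested on simulated counts with known changes.

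Symbols, places and exon lengths came from GENCODE M21 (55190 of 55450 IDs matched, and 187 of 187 listed symbols). Promoter windows came from a set of RefSeq promoters, and the set used held 7 of the 10 factors and not Ehf, Tfap2c or Grhl2. Levels between genes are per kilobase of the union of exons. The 10 factors, the gene lists and the tests were chosen with earlier results of these data known. Names were drawn from the 10 factors, all tested paralogues, from each other list the 2 largest and 2 smallest fold changes where the higher group had a mean of 100 or more, the targeted genes, and the genes nearest in profile. Not each of these is printed, and other genes named beside a small count of calls were chosen after their values were seen. Depth was 44167762 to 61967651 counts per library. Having 3 libraries a group limits the precision, and low counts add counting error. Alternatives were DESeq2 1.42.0, RLE and upper-quartile factors, TMM without the 100 most counted genes, no filter, a minimum of 10 counts in all libraries, a fit of the 2 groups compared, a replicate block, glmTreat against 2-fold, each library left out in turn and, added after seeing the data, a GC adjustment.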

Additional observations from a re-analysis of the deposited data

How the results depend on the processing

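Of the calls of the 10 factors, those of Gata3, Foxa1, Elf3, Cebpb and Spdef in the libraries labelled as LATS1/2-KO and those of Gata3, Foxa1, Elf3 and Spdef in those labelled as LATS1/2-Sox9-KO, both against control, held in all 19 alternatives. Between 5 and 6 factors were called lower in the first comparison and between 4 and 7 in the second. With glmTreat, 1962 genes were higher and 2043 lower in the first comparison, 2240 and 2468 in the second, and 18 and 14 between the deletion groups, where 0 factors were then called lower. By DESeq2 509 genes were higher and 750 lower between the deletion groups and 2 factors were called lower, as were 2 with no filter on low counts. Leaving out 1 library at a time, between 121 and 497 genes were higher and between 78 and 582 lower between the deletion groups (301 and 418 with all libraries), and from 0 to 2 factors were called lower. The lowest of these counts came without LATS1/2-KO replicate 3 (121 higher, 157 lower) and without LATS1/2-Sox9-KO replicate 2 (123 higher, 78 lower), and 497 without LATS1/2-KO replicate 1. Direction changed only where the estimate was near 0. For Ehf in the libraries labelled as LATS1/2-Sox9-KO against control leaving out 1 library gave from -0.02 (without control replicate 3) to 0.26, and the log2 fold change was -0.20 with the GC adjustment. Between the deletion groups, Gata3 was at -0.02 with upper-quartile factors and from -0.14 to 0.33 with 1 library left out, being negative without LATS1/2-KO replicate 1 (-0.13) or 2 (-0.04) or LATS1/2-Sox9-KO replicate 1 (-0.14). With 1 library left out, Foxa1 ranged from -0.52 to 0.11, positive without LATS1/2-KO replicate 1 (0.11) or LATS1/2-Sox9-KO replicate 2 (0.03), and Elf3 from -0.22 (without LATS1/2-Sox9-KO replicate 1) to 0.45. The cause of these shifts was not tested. With the replicate number as a block, the call of Spdef between the deletion groups was lost (log2 fold change -1.87, adjusted p = 0.0626), which left 0 factors called lower, with 265 genes higher and 336 lower. No other call of the 10 factors changed under the block. The deviations of same-numbered libraries correlated from -0.066 to 0.17, and those of libraries with different numbers from -0.164 to 0.064. The highest values were between the deletion groups, for the libraries numbered 2 (0.17) and 1 (0.105). These correlations cannot settle whether the numbers mark pairs. The labels name no pairs, so the main fit used none.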
